A study of Mus musculus with 10 samples.

Results

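Mitochondrial protein import was followed in mouse small cell lung cancer (mSCLC) cells through the genes of the translocases of the outer membrane (Tomm) and inner membrane (Timm) and of the proteins that work with them. The members were all gene symbols of the deposited table that start with Tomm or Timm and a number and hold no hyphen, together with Samm50, Mtx1, Mtx2, Pam16, Dnajc19, Grpel1, Chchd4, Pmpca and Pmpcb. They came to 33 of the 26335 genes in the table, of which 10 were Tomm genes, 14 were Timm genes and 9 were added by name. In all, 32 of them had a mean over all libraries above 0 log2 CPM, as had 12306 genes in all, and were tested.

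The mSCLC line was established from a primary lung tumour of an animal in which Cre delivered by adenovirus had deleted Rb1 and Trp53. It is the study's mouse line from a primary tumour, as distinct from its line from a liver metastasis, and all 10 libraries come from it. Both deleted genes had reads, Rb1 at 2.02 to 4.57 log2 CPM, highest in stiripentol 1 and 2, and Trp53 at -0.22 to 1.87, and since the deleted stretches are not given in the sources used here these reads check nothing. RNA was sequenced from 5 control libraries, grown with DMSO, and from 5 libraries grown with 250 µM stiripentol, an antiseizure medication that inhibits lactate dehydrogenase, both for 48 h. Nothing in the sample records says that the libraries of a group came from separate cultures, so the p-values measure the spread between these libraries, which may be technical.

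Most mitochondrial proteins are made in the cytosol and enter the organelle as unfolded chains. The TOM complex is the common entry gate of the outer membrane, with receptors that recognise the incoming protein and a channel that conducts it. Behind it the routes part: the SAM complex inserts barrel proteins into the outer membrane, the small TIM chaperones carry hydrophobic chains across the intermembrane space, the TIM22 complex inserts carriers into the inner membrane, and the TIM23 complex with its matrix motor pulls presequence proteins inside, where the processing peptidase removes the presequence.

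The libraries did not behave as 5 equivalent replicates in either group. By average linkage on the correlation of log2 CPM, control 1, 2 and 3 formed one cluster and control 4 and 5 another, and stiripentol 3, 4 and 5 stood apart from stiripentol 1 and 2. Within a group, libraries of the same cluster correlated at 0.983 to 0.997 and libraries of different clusters at 0.92 to 0.939. The sample records do not label these clusters. They were matched between the groups by size. The study's own table of mitochondrial genes numbers the controls otherwise than the deposited table, with the deposited control 4, 5, 1, 2 and 3 as its controls 1 to 5, so that by its numbers the smaller clusters are libraries 1 and 2 of each group and the larger ones 3 to 5, the same match as by size. Libraries are called here by the deposited numbers. The correlation of levels did not favour that match, since control 4 and 5 correlated at 0.932 to 0.938 with stiripentol 3 to 5 and at 0.881 to 0.904 with stiripentol 1 and 2, while the deviations from the group means of libraries with the same number in the study's table correlated at 0.084 to 0.224. Depth, recovered from the values, was 22375625 reads in control 5 and 55015760 to 65299372 reads in the other libraries. Genes without any read carried the value -4.82 in control 1 to 3 and -4.74 in the other 7 libraries. The prior added before taking logs was thus worth less in control 1 to 3. Without that prior the CPM of each library summed to between 999987 and 999994, so the scaling to CPM was the same in all. Of the neuroendocrine markers, Syp and Insm1 stayed under 1 CPM in every library and Ncam1 lay at 6.54 to 7.27 log2 CPM. Krt8, Krt18 and Vim were all at 9.43 log2 CPM or above in every library, while Epcam was at or near 0. The other mesenchyme markers moved with group and cluster. Col3a1 was at 8.18 to 8.36 log2 CPM in control 1 to 3, 4.73 and 5.03 in control 4 and 5 and 0.49 to 2.00 in stiripentol, and Pdgfrb was at 6.44 to 7.61 in control and 5.25 to 5.86 in stiripentol. Col1a1 was at 4.67 to 6.11 in control 1 to 3, 7.80 and 8.33 in control 4 and 5, 5.57 and 5.30 in stiripentol 1 and 2 and 6.28 to 6.65 in stiripentol 3 to 5. The summed mesenchyme list, 4 of 4 genes, was 2620 to 3830 CPM in control and 2470 to 4640 CPM in stiripentol. The summed level of the immune list (3 of its 4 genes in the table) was 6.41 to 18.6 CPM in control and 58.8 to 103 CPM in stiripentol, carried mainly by Cd68, with Ptprc at or near 0. The summed tuft list, 2 of 2 genes, was 1.69 to 6.78 CPM in control and 25.1 to 59.6 CPM in stiripentol, through Avil, while Pou2f3 was lower in every stiripentol library than in any control. Their part in the results for import genes was not tested.

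The question of the comparison was whether the RNA for the import machinery changed with stiripentol. Over all 10 libraries, 0 of the 32 import genes passed the test in either direction (limma with a mean-variance trend on log2 CPM, Benjamini-Hochberg adjusted p under 0.05 over all 12306 genes). Of all genes tested, 14.1% were lower and 13.6% were higher, 27.7% in either direction. At an unadjusted p under 0.05 there were 4 import genes, namely Tomm70a, Tomm34 and Timm17a on the lower side and Tomm7 on the higher side, which is 12.5% of them against 41.7% of all genes. With voom on the recovered reads the count was again 0, against 29.5% of all genes. With the replicate numbers of the study's table as a block, 2 import genes passed, Tomm70a as lower and Timm10 as higher, against 17.9% lower and 16.7% higher of all genes. With the deposited numbers as a block 0 passed, against 8.63% lower and 8.29% higher of all genes. For no import gene did the control and stiripentol libraries form separate ranges, whereas of all genes 14.3% were separated with stiripentol lower and 13.0% with stiripentol higher. In bulk RNA such as this, a changed share of cells of one state and a changed RNA amount per cell cannot be told apart.

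The log2 changes of the 32 genes ran from -0.83 for Tomm70a to 0.43 for Timm10 and Pam16, with a median of -0.02, next to a median of -0.06 over all genes. The median size of the change, sign set aside, was 0.20 for the import genes and 0.41 for all genes. The median standard error was 0.16 for the import genes and 0.22 for all genes. The 95% interval of the change lay within 0.5 log2 units of 0 for 12 of the 32 genes, 37.5% against 14.2% of all genes. It lay within 1 log2 unit for 28 of the 32, 87.5% against 54.9% of all genes. For Timm22, Timm8a1, Pmpca and Tomm70a the interval reached further, so for these genes a change of 1 log2 unit was within what the spread of the libraries allowed.

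**Figure D1:**
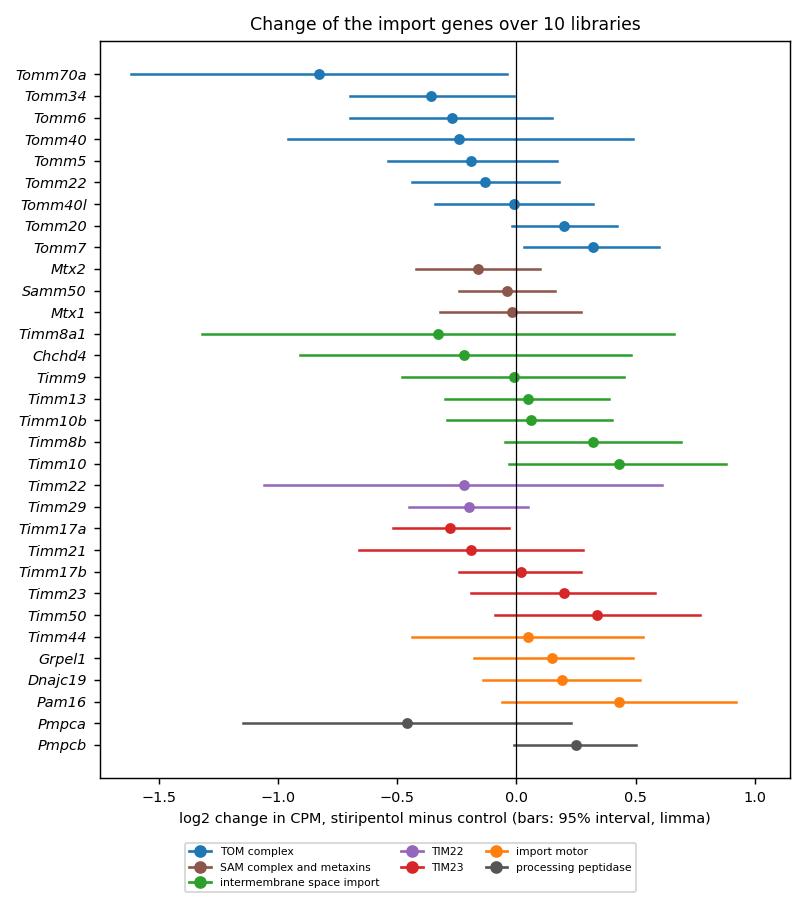
Log2 change in CPM between 5 stiripentol and 5 control libraries for the 32 tested import genes, grouped by role. Points are the changes and bars the 95% intervals from limma, and the points run from -0.83 (Tomm70a) to 0.43 (Timm10 and Pam16).

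Tomm70a was lower, and Timm10, Timm8b, Pmpcb and Pam16 were higher, past the threshold in both pairs of clusters when each was taken alone. Of all genes, 18.8% were lower and 15.3% higher by the same criterion, so 1 and 4 of 32 import genes, 3.12% and 12.5%, were not more than the background. Because the clusters were found in these same values, the spread within a cluster is too small a measure of error and the p-values from single clusters are too small.

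The promoters of these genes are shown because their start sites lie beside short matches to known promoter elements. The 100 bases before the RefSeq start site are given for each, 5′ to 3′ on the strand of the gene, in build GRCm38.p6. Capitals mark CCGGAAG or its reverse complement CTTCCGG, the core bound by ETS factors such as GABP, and in Pam16 the element of NRF1, which reads GCGC, any base, T and GCGC, on its reverse strand. GABP, also called NRF2, and NRF1 are textbook activators of nuclear genes for mitochondrial proteins.
Tomm70a, chr16:57121614-57121713, plus strand: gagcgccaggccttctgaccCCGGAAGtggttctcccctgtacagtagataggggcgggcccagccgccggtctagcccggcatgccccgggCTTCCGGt
Timm10, chr2:84826921-84827020, plus strand: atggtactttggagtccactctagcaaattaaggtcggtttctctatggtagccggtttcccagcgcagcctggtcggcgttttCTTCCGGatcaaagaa
Timm8b, chr9:50603801-50603900, plus strand: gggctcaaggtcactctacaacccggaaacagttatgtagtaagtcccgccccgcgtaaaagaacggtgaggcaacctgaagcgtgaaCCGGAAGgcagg
Pmpcb, chr5:21737060-21737159, plus strand: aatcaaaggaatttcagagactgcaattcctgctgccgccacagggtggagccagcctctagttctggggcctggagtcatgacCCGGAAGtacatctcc
Pam16, chr16:4624947-4625046, minus strand: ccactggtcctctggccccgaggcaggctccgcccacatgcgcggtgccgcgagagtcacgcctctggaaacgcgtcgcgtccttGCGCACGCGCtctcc

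The ETS core began 80 and 8 bases before the start site in Tomm70a, 16 bases before it in Timm10 and Pmpcb and 12 bases before it in Timm8b, and the NRF1 element began 15 bases before it in Pam16. Both the gene that was lower and genes that were higher in each pair of clusters thus carried the ETS core. RefSeq promoter windows, from 250 bases before to 50 bases after the start site, were matched by symbol for 29 of the 32 tested import genes, the missing ones being Tomm40l, Tomm7 and Timm21. On either strand, the ETS core was present in 13 of the 29 windows, 44.8%, and in 1952 of the 9144 windows of all genes tested, 21.3%. The NRF1 element was in 4 of 29 (Chchd4, Pam16, Timm8b and Tomm20), 13.8% against 12.2%. CACGTG, the E-box, was in 13.8% against 11.9% and CCAAT in 31.0% against 43.8%, while TGATGNAA, the core of the amino acid response element, was in 0 of 29 against 2.55%. Each motif was searched on its own, so matches of different motifs may overlap, and a match is a description of letters and not of binding.

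The outer membrane gate held the gene with the widest difference between the group means, Tomm70a (ENSMUSG00000022752, GRCm38 chr16:57121703-57156705), a receptor that docks chaperone-bound carrier proteins. In control its level was 7.91, 7.89, 7.55, 6.91 and 6.91 log2 CPM in libraries 1 to 5, and in stiripentol 5.75, 5.79, 7.17, 7.09 and 7.22. Stiripentol 1 and 2 were below every other library, but stiripentol 3 to 5 lay between control 4 and 5 and control 1 to 3, so the groups overlapped. Group means were 7.43 ± 0.50 (SD, n = 5) for control and 6.60 ± 0.76 (SD, n = 5) for stiripentol, a log2 change of -0.83 ± 0.36 (SE), to 56.2% of control, which did not pass the test (limma adjusted p = 0.105). Within the clusters it was lower by -1.14 ± 0.10 between control 4 and 5 and stiripentol 1 and 2, and by -0.63 ± 0.10 between control 1 to 3 and stiripentol 3 to 5. With a term for the cluster in the limma fit the change was -0.83 ± 0.11, adjusted p = 0.000295. As a block, the study's replicate numbers gave an adjusted p of 0.0067 and the deposited numbers one of 0.215 (limma). The study's numbers were used after seeing the data and follow the clusters found in these values, so their p-values too are too small.

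Tomm34, a cytosolic cochaperone of precursor proteins, stood at 5.74, 5.79, 5.74, 5.93 and 5.96 log2 CPM in control and 5.06, 5.19, 5.67, 5.75 and 5.72 in stiripentol. The difference came from stiripentol 1 and 2, the lowest of all 10 libraries, while stiripentol 3 to 5 lay beside control 1 to 3. Its log2 change was -0.36 ± 0.16 over all libraries (limma adjusted p = 0.112), -0.82 ± 0.11 in the smaller clusters and -0.04 ± 0.06 in the larger ones. Tomm34 overlaps Stk4 on the opposite strand over 848 bases, and Stk4 had 41054 reads over all libraries next to 28518 for Tomm34. Since the strand used in counting is not given, reads of the overlap cannot be told apart. Tomm40, the channel itself, and Tomm6, a small subunit that steadies the complex, had another pattern. Tomm40 was at 6.70, 6.50, 6.28, 5.34 and 5.06 log2 CPM in control and 5.29, 5.33, 6.08, 5.97 and 6.00 in stiripentol. Control 1 to 3 were above every other library, and control 4 and 5 were as low as stiripentol 1 and 2. The log2 change of Tomm40 was -0.24 ± 0.33 (limma adjusted p = 0.605). Tomm6 likewise was highest in control 1 to 3, at 6.37 to 6.56 log2 CPM, and the other 7 libraries lay at 5.63 to 6.07.

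Tomm7, a small subunit of the channel complex, was the TOM gene with the largest difference on the higher side. It lay at 5.62, 5.62, 5.53, 5.53 and 5.28 log2 CPM in control and 6.12, 5.98, 5.77, 5.72 and 5.58 in stiripentol. Stiripentol 5 fell within the control range and the other 4 stiripentol libraries were above it. Group means were 5.51 ± 0.14 (SD, n = 5) for control and 5.83 ± 0.21 (SD, n = 5) for stiripentol, a log2 change of 0.32 ± 0.13 (limma adjusted p = 0.0869). The presequence receptors Tomm20 and Tomm22 differed less, with log2 changes of 0.20 ± 0.10 and -0.13 ± 0.14. Tomm5 had a log2 change of -0.19 ± 0.16 and Tomm40l, a paralog of the channel, of -0.01 ± 0.15. Over the 9 tested TOM genes the median log2 change was -0.19. Tomm6os, a transcript antisense to Tomm6 whose locus overlaps it, was the only member below the filter on low values, at -2.54 to -0.29 log2 CPM in control and -1.19 to -0.42 in stiripentol.

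**Figure D2:**
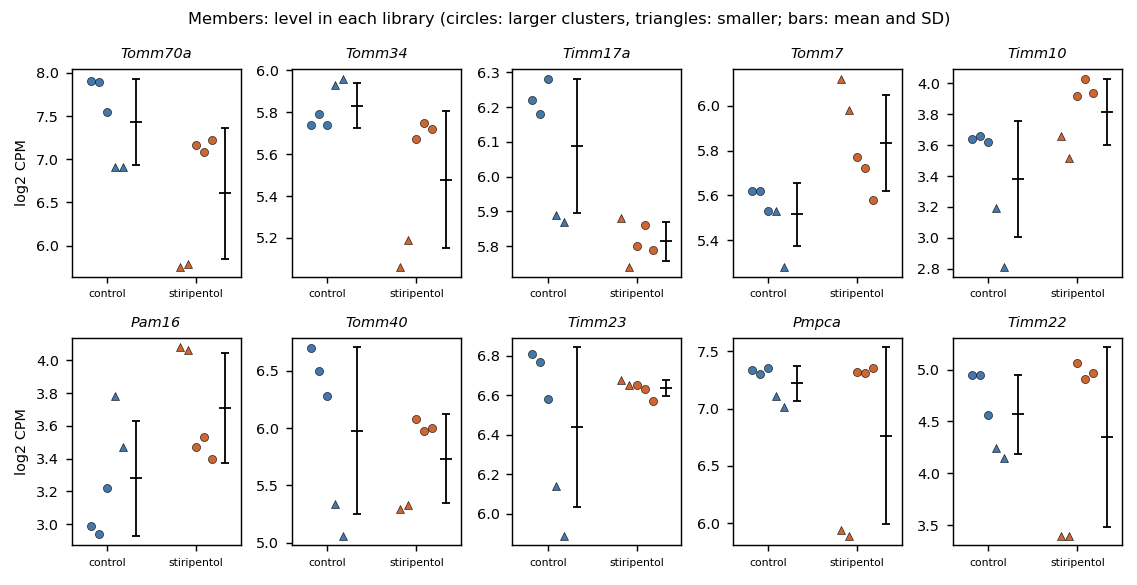
Level in log2 CPM of 10 import genes in each of the 5 control (blue) and 5 stiripentol (orange) libraries. Circles are control 1 to 3 and stiripentol 3 to 5, triangles are control 4 and 5 and stiripentol 1 and 2, and bars give the mean and SD of each group of 5. For every gene shown the ranges of the 2 groups overlap, and for Pmpca, Timm22 and Tomm34 only the stiripentol triangles lie far below the other libraries.

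Beside the gate, the SAM genes differed little. Samm50, the barrel of the SAM complex, had a log2 change of -0.04 ± 0.09, and its level lay at 6.87 to 7.12 log2 CPM in control and 6.84 to 7.03 in stiripentol. The metaxins Mtx1 and Mtx2, its outer membrane partners, had log2 changes of -0.02 ± 0.13 and -0.16 ± 0.12. The intervals of all 3 genes stayed within 0.5 log2 units of 0. The locus of Mtx1 overlaps Thbs3 on the opposite strand over 11658 bases, and Thbs3 had 17540 reads over all libraries next to 27783 for Mtx1.

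In the intermembrane space, Timm9 and Timm10 form the hexameric chaperone of the carrier route. Timm10 was at 3.64, 3.66, 3.62, 3.19 and 2.81 log2 CPM in control and 3.66, 3.52, 3.92, 4.03 and 3.94 in stiripentol. Control 4 and 5 were below every other library, stiripentol 3 to 5 were above every other library, stiripentol 1 lay among control 1 to 3 and stiripentol 2 just below them. Group means were 3.39 ± 0.38 (SD, n = 5) for control and 3.81 ± 0.22 (SD, n = 5) for stiripentol, a log2 change of 0.43 ± 0.20 (limma adjusted p = 0.139). As a block, the study's replicate numbers gave an adjusted p of 0.048 and the deposited numbers one of 0.236 (limma). Timm9 was at 3.99, 3.94, 3.90, 3.22 and 3.08 log2 CPM in control and 3.69, 3.38, 3.65, 3.69 and 3.65 in stiripentol. Its control libraries lay on both sides of all 5 stiripentol libraries, and its log2 change was -0.01 ± 0.21.

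Timm8b, which with Timm13 makes a second small chaperone, was at 5.07 to 5.55 log2 CPM in control and 5.27 to 5.93 in stiripentol, a log2 change of 0.32 ± 0.17 (limma adjusted p = 0.165). Timm13 itself had a log2 change of 0.05 ± 0.16. Timm8a1, the mouse counterpart of the human deafness-dystonia gene, had the largest SD of the tested import genes among the control libraries, 0.87, at 4.89, 5.07, 4.30, 3.17 and 3.34 log2 CPM, and was at 3.00, 3.08, 4.38, 4.28 and 4.40 in stiripentol. In both groups the smaller cluster was the lower one, by more than 1 log2 unit in its means. The log2 change was -0.33 ± 0.45 (limma adjusted p = 0.6). The transcribed sequence of Gm9797 matches Timm8a1 at 100% over 612 nucleotides and had 2802 reads over all libraries next to 10425 for Timm8a1, so the split of reads between the pair is uncertain. Chchd4, the oxidoreductase that folds the small TIM proteins as they arrive, was at 3.60 to 4.32 log2 CPM in control, at 2.95 and 3.09 in stiripentol 1 and 2 and at 4.22 to 4.39 in stiripentol 3 to 5. Timm10b had a log2 change of 0.06 ± 0.16. Its locus shares 3086 bases on the same strand with Gm45799, which had 3104 reads over all libraries next to 10986 for Timm10b. It also overlaps Arfip2 on the opposite strand over 361 bases, so its reads are uncertain too.

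The 2 genes of the TIM22 carrier insertase lay on the lower side. Timm22, its channel, was at 4.95, 4.95, 4.56, 4.24 and 4.15 log2 CPM in control and 3.40, 3.40, 5.06, 4.91 and 4.97 in stiripentol. Stiripentol 1 and 2 were the lowest of all libraries and stiripentol 3 to 5 were among the highest, which left a log2 change of -0.22 ± 0.38. Timm29, a subunit of the same complex, differed by -0.20 ± 0.11 log2 units (limma adjusted p = 0.193).

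In the TIM23 complex the changes of the subunits ran in both directions. Timm17a, a channel subunit whose protein is known to be degraded under stress, was at 6.22, 6.18, 6.28, 5.89 and 5.87 log2 CPM in control and 5.88, 5.74, 5.80, 5.86 and 5.79 in stiripentol. Control 1 to 3 were above all other libraries, and stiripentol 1 lay between control 5 and control 4, the only stiripentol library above any control. Group means were 6.09 ± 0.19 (SD, n = 5) for control and 5.81 ± 0.06 (SD, n = 5) for stiripentol, a log2 change of -0.28 ± 0.11, to 82.5% of control (limma adjusted p = 0.0844). Its paralog Timm17b had a log2 change of 0.02 ± 0.12.

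Timm23, the core of the presequence channel, was at 6.81, 6.77, 6.58, 6.14 and 5.89 log2 CPM in control and 6.68, 6.65, 6.65, 6.63 and 6.57 in stiripentol. The stiripentol libraries were almost level with one another while the control libraries lay above and below them. The log2 change of Timm23 was 0.20 ± 0.17. Timm50, the receptor that hands presequences to the channel, was at 4.72 to 5.64 log2 CPM in control and 5.32 to 5.78 in stiripentol, a log2 change of 0.34 ± 0.19 (limma adjusted p = 0.206). Timm21, which links the complex to the outer gate and to the respiratory chain, was at 3.80 to 4.08 log2 CPM in control, at 3.26 and 3.15 in stiripentol 1 and 2 and at 3.99 to 4.11 in stiripentol 3 to 5.

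All 4 genes of the matrix motor had changes on the higher side of 0, and none passed the test. Pam16, which regulates the J-protein of the motor, was at 2.99, 2.94, 3.22, 3.78 and 3.47 log2 CPM in control and 4.08, 4.06, 3.47, 3.53 and 3.40 in stiripentol. Control 1 to 3 were the lowest and stiripentol 1 and 2 the highest libraries, with the remaining 5 between them. Group means were 3.28 ± 0.35 (SD, n = 5) for control and 3.71 ± 0.33 (SD, n = 5) for stiripentol, a log2 change of 0.43 ± 0.22 (limma adjusted p = 0.166). Dnajc19, the J-protein, Grpel1, the nucleotide exchange factor, and Timm44, which tethers the motor to the channel, had log2 changes of 0.19 ± 0.15, 0.15 ± 0.15 and 0.05 ± 0.22. Pam16 overlaps Glis2 on the opposite strand over 8461 bases of its locus, Dnajc19 overlaps Fxr1 and Grpel1 overlaps Tada2b in the same way. Whether strand was used in counting is not given in the sources used here, so reads of such pairs cannot be told apart.

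The subunits of the processing peptidase differed in opposite directions. Pmpca, the alpha subunit that binds the presequence, was at 7.34, 7.30, 7.35, 7.11 and 7.01 log2 CPM in control and 5.94, 5.89, 7.32, 7.31 and 7.35 in stiripentol. Stiripentol 1 and 2 were more than 1 log2 unit below every other library, and stiripentol 3 to 5 matched control 1 to 3. Pmpcb, the catalytic beta subunit, was at 6.48, 6.46, 6.51, 6.71 and 6.52 log2 CPM in control and 7.05, 6.97, 6.64, 6.64 and 6.61 in stiripentol. It was highest in stiripentol 1 and 2, the libraries in which Pmpca was lowest, and only control 4 kept the groups from being separate. The log2 changes were -0.46 ± 0.31 for Pmpca (limma adjusted p = 0.279) and 0.25 ± 0.12 for Pmpcb (limma adjusted p = 0.129). Pmpca overlaps Inpp5e on the opposite strand over 874 bases.

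How the clusters lay apart in these genes is given here as a description. Stiripentol 1 and 2 were below all other 8 libraries for 10 of the 32 import genes (31.2% against 38.4% of all genes), among them Tomm70a, Tomm34, Tomm22, Timm22, Timm21, Chchd4 and Pmpca. They were above all others for 7 genes (21.9% against 18.1%), among them Tomm7, Tomm20, Timm44, Pam16 and Pmpcb. Control 4 and 5 were below all others for Dnajc19, Grpel1, Timm10, Timm13, Timm23, Timm50 and Timm9, which is 21.9% against 11.2% of all genes, and above all others for Tomm34 and Tomm40l, 6.25% against 16.2%. Control 1 to 3 were above all others for Timm17a, Timm29, Timm9, Tomm40, Tomm6 and Tomm70a, 18.8% against 15.4%, and below all others for Pam16 and Pmpcb, 6.25% against 15.6%. Stiripentol 3 to 5 were above all others for Timm10 and Timm50 (6.25% against 14.5%) and below all others for Timm44 (3.12% against 4.14%). The median of control 4 and 5 minus control 1 to 3 was -0.29 log2 units over the import genes and 0.02 over all genes.

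Within the clusters, the change with stiripentol was not the same for many members. Between control 4 and 5 and stiripentol 1 and 2, 7 import genes passed on the lower side and 12 on the higher side (21.9% and 37.5%, against 46.5% and 25.7% of all genes). Between control 1 to 3 and stiripentol 3 to 5, 6 passed on the lower side and 4 on the higher side (18.8% and 12.5%, against 27.0% and 37.7%). With a term for the cluster in one fit over all libraries, Timm17a, Tomm6 and Tomm70a were lower and Pam16, Pmpcb, Timm10, Timm50, Timm8b and Tomm7 higher, 3 and 6 genes, against 27.1% and 23.6% of all genes. All 4 motor genes were among those higher in the smaller clusters, with log2 changes of 0.36 to 0.50, but in the larger clusters their changes were -0.18 to 0.42 and only Pam16 passed.

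The difference of the effect between the clusters was itself tested with an interaction term. It passed for 18 of the 32 import genes (56.2% against 63.3% of all genes), with the effect lower in the smaller clusters for 6 and higher for 12, against 45.3% lower and 18.1% higher over all genes. The widest differences were those of Pmpca at -1.14 ± 0.10 log2 units (limma adjusted p = 2.94e-06), Timm22 at -0.96 ± 0.17 (adjusted p = 0.000554), Timm21 at -0.94 ± 0.15 (adjusted p = 0.000227), Chchd4 at -0.79 ± 0.16, Tomm34 at -0.78 ± 0.11 and Timm23 at 0.76 ± 0.13. The whole transcriptome shifted too, the median effect over all genes being -0.25 in the smaller and 0.08 in the larger clusters, so that centring each library on its median gave 5 lower and 20 higher (against 30.8% and 32.8% of all genes) and quantile normalization 2 lower and 19 higher (against 29.8% and 30.2%). With the clusters matched the other way, 22 were lower and 5 higher (against 46.4% and 25.5%). Pmpca, Timm22, Timm21, Chchd4, Tomm34 and Tomm70a were lower under both matches, while Timm23 turned from higher to lower. So for some of these genes, but not for all, the direction of the difference rests on how the clusters are matched. The p-values are too small for the reason given above. With 1 mean per group and cluster no gene at all passed, 0 of 12306 (limma), so that fit says nothing of the import genes at the adjusted level. At an unadjusted p under 0.05 it had 0 import genes, against 9.07% of all genes.

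**Figure D3:**
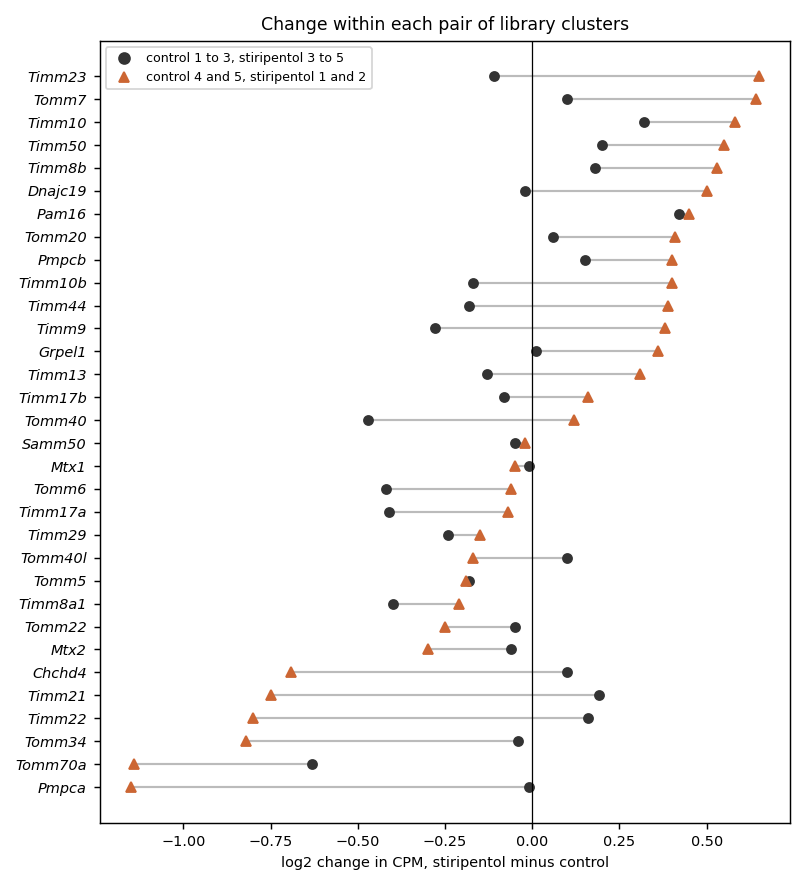
Log2 change in CPM, stiripentol minus control, for each of the 32 tested import genes within the larger clusters (circles, control 1 to 3 and stiripentol 3 to 5) and the smaller clusters (triangles, control 4 and 5 and stiripentol 1 and 2). Tomm70a is below 0 in both, Timm10 and Pam16 are above 0 in both, and for Timm22, Timm21, Chchd4 and Timm23 the symbols lie on opposite sides of 0.

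Ratios between paralogs and partner subunits do not depend on how a library was scaled. For 10 of them the groups were compared by permuting the 5 and 5 libraries exactly, in a two-sided test whose smallest possible p is 0.00794. None passed after Benjamini-Hochberg adjustment over the 10 pairs, where a lone pair at the smallest p would have reached only 0.0794. The ratios are of CPM and not per length, so only their change between libraries can be read. The log2 ratio of Timm9 to Timm10 was 0.34, 0.28, 0.28, 0.03 and 0.28 in control and 0.03, -0.13, -0.26, -0.34 and -0.29 in stiripentol. Control 4 and stiripentol 1 both stood at 0.03 and the other libraries were separate. The difference was -0.44 (exact permutation p = 0.0159, adjusted p = 0.119), with -0.60 in the larger and -0.20 in the smaller clusters.

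The log2 ratio of Timm17a to Timm17b, alternative subunits of the presequence channel, was 1.71, 1.58, 1.69, 1.33 and 1.60 in control and 1.26, 1.19, 1.33, 1.37 and 1.28 in stiripentol. Stiripentol 4 was above control 4 and stiripentol 3 level with it, and the other control libraries were above all stiripentol libraries. The difference was -0.29 (exact permutation p = 0.0238, adjusted p = 0.119), with -0.34 in the larger and -0.23 in the smaller clusters. The log2 ratio of Pmpca to Pmpcb was 0.41 to 0.86 in control and 0.67 to 0.74 in stiripentol 3 to 5, but -1.11 and -1.08 in stiripentol 1 and 2. The difference over all libraries was -0.71 (exact permutation p = 0.238, adjusted p = 0.466).

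For Tomm40 against Tomm40l and Timm8a1 against Timm8b the control clusters stood further apart than the groups, without a test of that contrast. The log2 ratio of Tomm40 to Tomm40l was 0.97 to 1.67 in control 1 to 3 and -0.31 and -0.39 in control 4 and 5, and the difference between the groups was -0.23 (exact permutation p = 0.659, adjusted p = 0.659). For Timm8a1 to Timm8b the mean of control 4 and 5 was -1.71 from that of control 1 to 3, and the difference between the groups was -0.65 (exact permutation p = 0.341, adjusted p = 0.466). The other 5 ratios, among them Mtx1 to Mtx2 and Grpel1 to Grpel2, had differences of -0.27 to 0.37 and adjusted p of 0.423 to 0.511 in the exact permutation test. In these 5 too the control clusters stood further apart than the groups, the mean of control 4 and 5 less that of control 1 to 3 being -0.77 for Grpel1 to Grpel2, 1.09 for Pam16 to Dnajc19, -0.74 for Timm13 to Timm8b, -0.50 for Timm10 to Timm10b and -0.25 for Mtx1 to Mtx2.

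**Figure D4:**
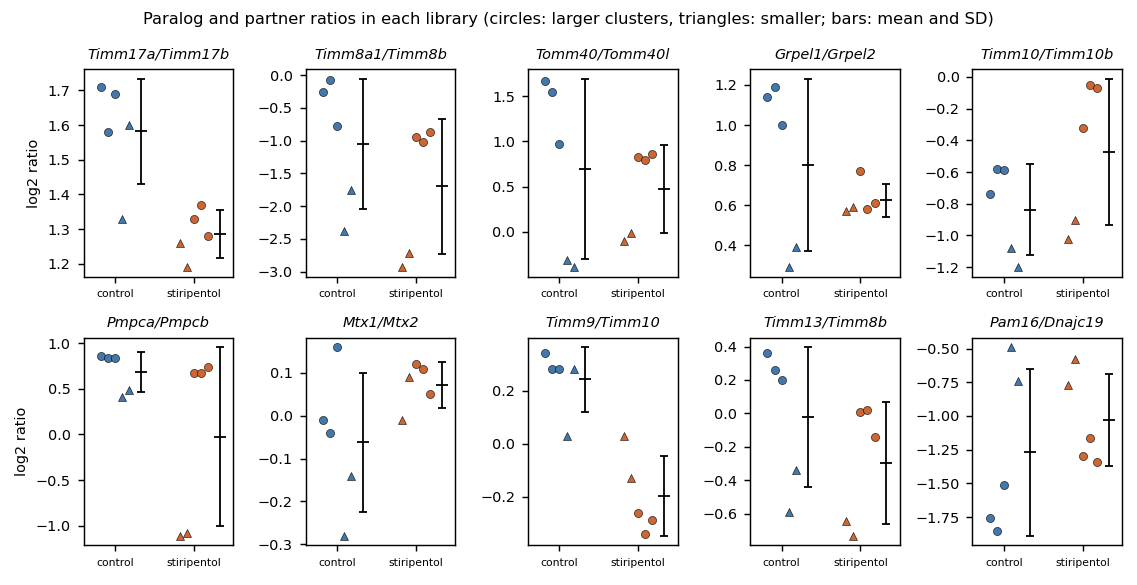
Log2 ratio of CPM of 10 pairs of paralogs or partner subunits in each control (blue) and stiripentol (orange) library. Circles are control 1 to 3 and stiripentol 3 to 5, triangles are control 4 and 5 and stiripentol 1 and 2, and bars are the mean and SD of 5. The ratio of Pmpca to Pmpcb is near -1.1 in stiripentol 1 and 2 and above 0.4 in every other library.

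The translocases were set beside 22 further genes of protein import, insertion and presequence processing, of which 20 were in the table and tested. In the same fit 3 of the 20 were lower and 4 were higher, against 14.1% and 13.6% of all genes. For all 7, the 3 lower and the 4 higher, the control and stiripentol libraries formed separate ranges, against 14.3% and 13.0% of all genes. The median log2 change of the 20 genes was 0.31, and those of the 32 translocase genes and of all genes were near 0, as given above. Whether the further genes differed from the translocases as a group was not tested.

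Of the further genes that passed, Hspa9, the mitochondrial HSP70 that drives the import motor, had the largest rise and was at 9.86, 10.06, 9.99, 9.14 and 9.13 log2 CPM in control and 11.26, 11.17, 10.69, 10.67 and 10.67 in stiripentol. Every stiripentol library was above every control, and the rise was larger between control 4 and 5 and stiripentol 1 and 2 (2.08 ± 0.09) than in the larger clusters (0.70 ± 0.07). The log2 change over all libraries was 1.25 ± 0.23 (limma adjusted p = 0.00312). Dnajc15, a J-protein paralogous to Dnajc19, was at 4.30, 4.29, 4.21, 4.30 and 4.01 log2 CPM in control and 5.43, 5.29, 4.96, 4.68 and 4.78 in stiripentol. All its stiripentol libraries were higher, by a log2 change of 0.80 ± 0.17 (limma adjusted p = 0.00598). So the HSP70 and one J-protein of the motor rose, whereas Dnajc19, Grpel1, Pam16 and Timm44, which work with them, did not pass the test. The difference between these genes was not tested.

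Hspe1, the cochaperonin that caps HSP60, rose by a log2 change of 0.59 ± 0.17 (limma adjusted p = 0.0286), from 6.04 to 6.82 log2 CPM in control to 6.87 to 7.45 in stiripentol. Its partner Hspd1 did not pass, being at 8.25 and 8.26 in control 4 and 5, 9.21 to 9.60 in control 1 to 3 and 9.30 to 9.48 in stiripentol. Gfer, the sulfhydryl oxidase that reoxidises Chchd4, rose by 0.43 ± 0.13 (limma adjusted p = 0.0361). Aifm1, which holds Chchd4 at the inner membrane, fell by 0.62 on the log2 scale with an SE of 0.16 (limma adjusted p = 0.0162). Chchd4 itself had a log2 change of -0.22 ± 0.32, with an interval of -0.91 to 0.48.

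Romo1, a small inner membrane protein that also serves the TIM23 complex, was at 5.54, 5.51, 5.30, 5.57 and 5.08 log2 CPM in control and 4.19, 4.13, 4.63, 4.62 and 4.59 in stiripentol. All stiripentol libraries were lower than all controls, and the log2 change was -0.97 ± 0.16 (limma adjusted p = 0.00189). Mtch1, an outer membrane insertase, was at 7.93 to 8.42 log2 CPM in control and 6.70 to 7.86 in stiripentol, a log2 change of -0.86 ± 0.25 (limma adjusted p = 0.0285). Its paralog Mtch2 had a log2 change of 0.21 ± 0.10, which did not pass. With 1 mean per group and cluster, the fit in which 0 of 12306 genes passed, 3 of the 20 genes, Hspa9, Mtch1 and Romo1, had an unadjusted p under 0.05 (limma), against 9.07% of all genes. Without control 3, and without control 5, 2 of the 20 genes were higher in place of 4.

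**Figure D5:**
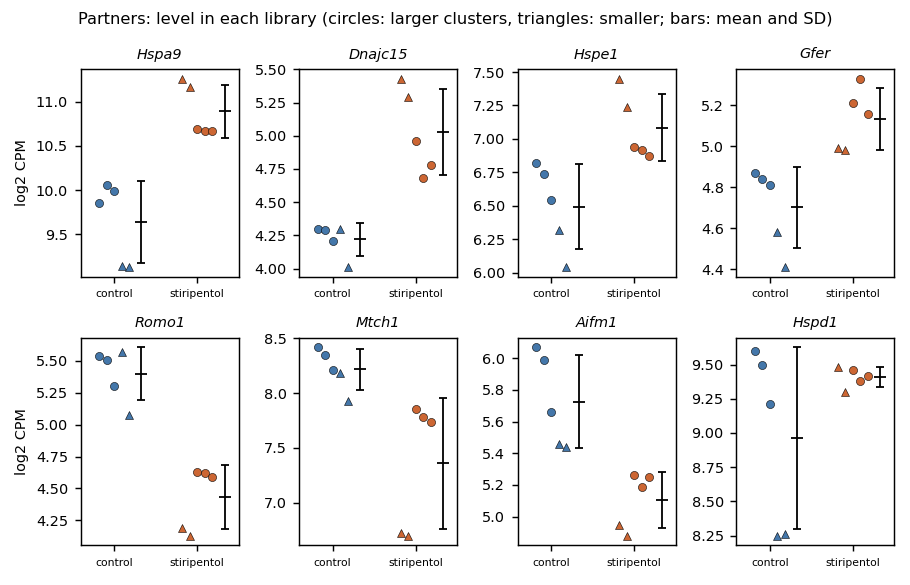
Level in log2 CPM of the 7 further import genes that passed the test, and of Hspd1, in each control (blue) and stiripentol (orange) library. Circles are control 1 to 3 and stiripentol 3 to 5, triangles are control 4 and 5 and stiripentol 1 and 2, and bars are the mean and SD of 5. Except for Hspd1, the control and stiripentol points of each gene form separate ranges, and Hspa9 is at 10.67 or above in every stiripentol library.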

How the data were processed

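The table the authors deposited holds log2 CPM of each gene in each library, computed after adding a prior of 0.837 to 2.38 reads. Their methods name GENAVi for the CPM, and the submitters' processing notes name mm10. The aligner, counter, annotation and strand are not given in the sources used here. The methods describe 3′ mRNA libraries and the sample records TruSeq total RNA. The authors' deposited means, ratios and p-values of their own comparison were not used.

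Columns were matched to samples by name. Genes with a mean log2 CPM above 0 (12306) were fitted with limma 3.58.1 in R 4.3.3 (lmFit, eBayes with trend, Benjamini-Hochberg), which was tested on simulated data. Whole reads were recovered for 100% of values, within 0.05 reads, for the voom alternative. Ratios used exact permutation tests (Python 3.11.15, scipy 1.17.1). No library was a copy of another (chi-square per gene at least 8.39 within clusters). Positions and overlaps come from GENCODE M21 on GRCm38, near copies from blastn 2.17.0 (at least 95% identity over 300 nucleotides), promoters from RefSeq.

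The members, lists and alternatives were chosen with earlier results of these data known. Every member is named. Levels in every library are given for some of those that had opposite signs within a complex, stood in ratio pairs or differed most between clusters. The others have a range or a log2 change. Of the further import genes, those that passed are named, with Hspd1, Mtch2 and Grpel2 beside them.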

Additional observations from a re-analysis of the deposited data

Results flagged for a closer look

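Among 126 groups of 5 values examined for a single library far from the other 4, 9 were found, where chance gives about 1 in 20 (6.3). Control 4 stood apart in Pmpcb at 6.71, Timm21 at 4.08 and Timm8b at 5.55 log2 CPM, above the other controls in each case, and in the log2 ratio of Timm9 to Timm10 at 0.03, below them. Control 5 was low in Tomm7, at 5.28 log2 CPM, and in depth, at 22375625 reads. Stiripentol 1 was low in Timm29, at 4.99 log2 CPM, stiripentol 2 was low in Timm9, at 3.38, and stiripentol 3 was high in the log2 ratio of Grpel1 to Grpel2, at 0.77.

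The effect of stiripentol differed between the clusters by the interaction term for 18 import genes, 56.2% of those tested against 63.3% of all genes. The clusters were found in these same values, so the p-values of this term are too small. As the effect in the smaller minus that in the larger clusters, the log2 differences on the lower side were -1.14 for Pmpca, -0.96 for Timm22, -0.94 for Timm21, -0.79 for Chchd4, -0.78 for Tomm34 and -0.51 for Tomm70a. On the higher side they were 0.76 for Timm23, 0.66 for Timm9, 0.59 for Tomm40, 0.57 for Timm10b and Timm44, 0.54 for Tomm7, 0.53 for Dnajc19, 0.44 for Timm13, 0.36 for Tomm6, 0.35 for Grpel1 and Tomm20 and 0.34 for Timm17a. All were computed with clusters matched by size, and what separates the clusters was not tested.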

How the results depend on the processing

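The count of 0 import genes, lower or higher, was the same when each library was left out in turn, with median centring, upper quartile scaling, other filters, pseudocounts of 0.1 and 1 CPM and voom. With 1 mean per group and cluster 0 of 12306 genes passed, so its 0 tells nothing. The count of import genes moved with a cluster term (3 lower, 6 higher, against 27.1% and 23.6% of all genes). It was 6 and 4 in the larger clusters alone (against 27.0% and 37.7%) and 7 and 12 in the smaller ones (against 46.5% and 25.7%). With quantile normalization it was 0 and 1 (Timm10, against 17.0% of all genes higher). In stiripentol 1 to 5 against control 4 and 5, the libraries of 1 prior value, it was 0 and 5 (against 9.87% and 10.1%). That alternative was chosen after seeing the data. Of the further import genes, the cluster term gave 5 lower and 11 higher, the larger clusters 5 and 11 and the smaller clusters 4 and 9. The libraries of 1 prior value gave 1 and 5, and the shares of all genes for these fits are those just given. The fit with 1 mean per group and cluster gave 0 and 0. Quantile normalization or median centring gave 7 higher, where quantile normalization had 17.0% of all genes higher. Leaving out each library gave 2 to 3 lower and 2 to 4 higher. The interaction count of import genes ran from 13 to 23 with a library left out, where the share of all genes is not given here. It was 27 with the clusters matched the other way, 84.4% against 71.9% of all genes. Both alternatives were chosen after seeing the data. No log2 change over all libraries turned its sign past the threshold, but with the clusters matched the other way the interaction of Dnajc19, Grpel1, Timm13, Timm17a, Timm23, Timm9, Tomm40 and Tomm6 turned from higher to lower. The cause of these differences was not tested.

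With a replicate block in the deposited numbering the counts were 0 and 0 for the import genes and 1 lower (Romo1) and 3 higher (Dnajc15, Hspa9 and Hspe1) for the further genes, against 8.63% and 8.29% of all genes. The deviations of libraries with the same deposited number correlated at -0.204, -0.24, 0.061, -0.2 and -0.176. Between any control and any stiripentol library this correlation was positive in clusters matched by size and negative otherwise. It follows the clusters, so it cannot decide whether libraries of the same number were paired. In the study's numbering, an alternative chosen after seeing the data, the correlations were 0.219, 0.188, 0.224, 0.202 and 0.084, of which the last is under 0.1. That block gave 1 lower and 1 higher import gene (Tomm70a and Timm10) and 5 lower and 7 higher further genes, against 17.9% and 16.7% of all genes. In 5 pairs the smallest exact p of a ratio is 0.0625, so no ratio could pass. Which numbering is that of the samples is not given in the sources used here. The widest intervals of the log2 change were those of Timm8a1, Timm22, Tomm70a and Tomm40, genes in which the clusters of a group lay far apart.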
